A study of Mus musculus with 4 samples.

Results

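The genes described here encode the pore-forming subunits of 2 families of ionotropic glutamate receptors. Gria1 to Gria4 encode the AMPA receptor subunits GluA1 to GluA4, and Grik1 to Grik5 encode the kainate receptor subunits GluK1 to GluK5. These 9 genes were chosen by name from the 29224 genes of the table, and all 9 passed the filter on low counts that left 16793 genes for testing. RNA was sequenced from cells of the P5 mouse cerebral cortex, taken with magnetic beads against GLAST (ACSA-1), a glutamate transporter on the surface of astrocytes. The control group comprised 2 libraries from Ezh2 f/f mice, homozygous for an Ezh2 allele flanked by loxP sites, and the other group 2 libraries from Ezh2 cKO mice, which carry the same allele together with the Aldh1l1-icre driver, so that Cre acts in cells that use the astrocyte gene Aldh1l1. Ezh2 encodes the methyltransferase of Polycomb repressive complex 2, which trimethylates lysine 27 of histone H3. No treatment is named for either group. Neither the labels nor the methods say whether a library came from 1 animal or from pooled animals, so p-values measure the spread between these libraries, which may be technical.

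AMPA receptors are tetramers that carry most of the fast excitatory current at synapses, and kainate receptors are slower, modulatory channels that also work presynaptically. A receptor that holds the edited form of GluA2 lets little calcium through, so the proportion of Gria2 among the AMPA subunits matters for calcium entry. GluK1 to GluK3 can form channels on their own, while GluK4 and GluK5 need a partner from among GluK1 to GluK3. Neurons express most of these genes, oligodendrocyte precursors and astrocytes express some of them, and auxiliary proteins set how the receptors travel to the membrane and how fast they close.

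The count per library totalled between 16273308 and 17522152, and at that depth 3 counts correspond to 0.171 to 0.184 CPM (counts relative to library size, here normalised by the TMM method). Ezh2 had 25.4 and 20.8 CPM in Ezh2 f/f against 12 and 9.47 CPM in Ezh2 cKO. On the log2 scale Ezh2 fell by 1.11 (SE 0.16, edgeR adjusted p = 3.26e-05). Every fold change here sets Ezh2 cKO over the Ezh2 f/f control. The tables do not show which exons the deletion removes, and reads from the remaining ones are still counted. Astrocyte markers were present in every library, with a summed level of 89.2 and 90.9 FPKM (counts scaled to library size and gene length) over 10 genes in Ezh2 f/f against 489 and 439 FPKM in Ezh2 cKO. Pan-neuronal markers summed to more, 2304 and 2386 FPKM over 10 genes in Ezh2 f/f against 2067 and 2083 FPKM in Ezh2 cKO. Most of that sum was Tubb3, at a mean of 1878 FPKM in Ezh2 f/f and 1215 FPKM in Ezh2 cKO. The RNA of these bead-selected cells thus held abundant neuronal transcripts in both groups. In such bulk samples, fewer cells of a type and less RNA per cell cannot be told apart.

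The sequence below is shown because it carries the feature by which these subunits are best known. It is the coding sequence around the Q/R site, a glutamine codon in the pore loop that all 9 genes share and that the RNA-editing enzyme ADAR2, encoded by Adarb1, recodes to arginine in Gria2 transcripts and in part of the Grik1 and Grik2 transcripts. Each window runs 5′ to 3′ on the coding strand over 45 bases, with the Q/R codon in capitals, as read from the GENCODE M21 transcripts (GRCm38).
Gria1: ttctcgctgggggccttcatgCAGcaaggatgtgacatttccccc
Gria2: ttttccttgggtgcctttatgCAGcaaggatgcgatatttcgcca
Gria3: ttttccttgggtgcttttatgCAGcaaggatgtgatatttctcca
Gria4: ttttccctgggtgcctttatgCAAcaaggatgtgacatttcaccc
Grik1: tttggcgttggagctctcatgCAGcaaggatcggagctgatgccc
Grik5: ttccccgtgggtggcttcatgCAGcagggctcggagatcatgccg
The codon was CAG in 8 of the 9 genes and CAA in Gria4. In Gria2 it is codon 607 and lies at chr3:80706911-80706913 on the minus strand, in exon 11 of 16. In Gria1 it lies at chr11:57243094-57243096 (plus strand), in Gria3 at chrX:41610265-41610267 (plus strand) and in Gria4 at chr9:4464137-4464139 (minus strand). The codon of Grik1 lies at chr16:87940542-87940544 and that of Grik5 at chr7:25022497-25022499, both on the minus strand. Within the window, Gria genes differed from one another at 3 to 9 of the bases, and Grik1 to Grik3 at 4 to 9. Grik4 and Grik5 differed from each other at 14 bases, and the Gria genes differed from Grik1 to Grik3 at 16 to 18 bases. The deposited tables hold counts per gene and no base calls, so the edited fraction was not measured.

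Of the 9 subunit genes, 4 were higher in Ezh2 cKO (Gria1, Gria2, Gria3 and Grik1), 1 was lower (Grik5), and Gria4, Grik2, Grik3 and Grik4 passed the test in neither direction. These counts were read against a comparison in which most genes moved: 34.7% of all tested genes were called higher and 33.6% were called lower at an adjusted p under 0.05. The share of members called higher, 44.4%, was thus near that background, and the share called lower, 11.1%, was below it, in a group of only 9 genes. The median log2 fold change was 0.00 over the 9 members, 0.88 over the 4 AMPA genes and -0.04 over the 5 kainate genes. Over all tested genes it was 0.02, and without regard to sign it was 0.69. Of the called members, Gria3 (1.67), Gria2 (1.28) and Grik1 (0.74) moved further than 0.69, and Gria1 (0.48) and Grik5 (-0.44) less far. The libraries of the groups did not overlap in CPM for 4 members that lay above in Ezh2 cKO and for 2 that lay below, and they overlapped for 3. Among all tested genes the groups did not overlap in 42.8% with Ezh2 cKO above and in 41.5% with Ezh2 cKO below.

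**Figure D1:**
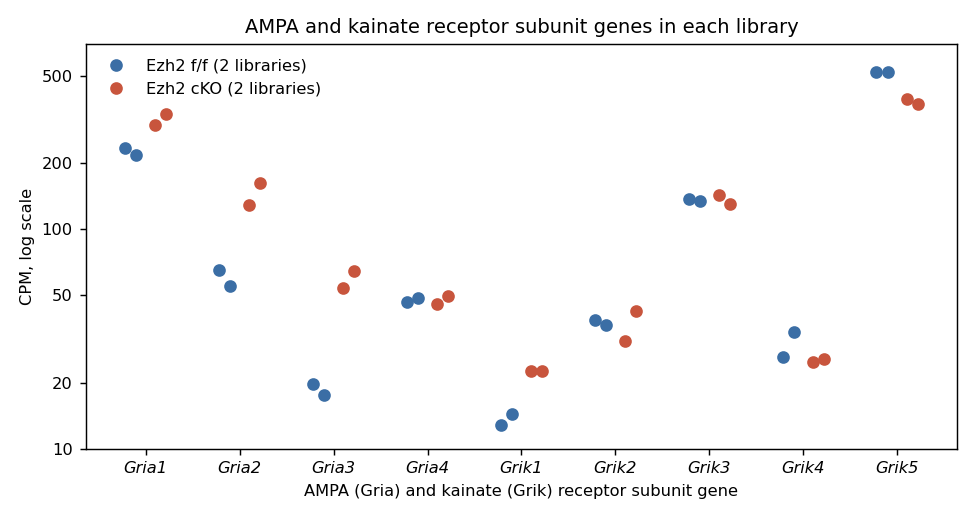
CPM (vertical axis, log scale) of each AMPA and kainate receptor subunit gene (horizontal axis), with 1 point per library and 2 libraries per group. Both Ezh2 cKO points of Gria1, Gria2, Gria3 and Grik1 lie above both Ezh2 f/f points, those of Grik5 and Grik4 lie below, and the points of Gria4, Grik2 and Grik3 overlap.

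Among the AMPA receptor genes, Gria3 and Gria2 rose the most. Gria3 (ENSMUSG00000001986, X chromosome, plus strand), whose product GluA3 pairs with GluA2 in many adult synapses, had 337 and 277 counts in Ezh2 f/f against 957 and 1118 counts in Ezh2 cKO. Scaled to library size this was 19.7 and 17.6 CPM against 54.3 and 64.5 CPM. Both Ezh2 cKO libraries lay far above both Ezh2 f/f libraries, and the log2 fold change was 1.67 (SE 0.12, 95% confidence interval 1.41 to 1.92, edgeR adjusted p = 3.01e-08), or 3.18-fold. Gria2 (ENSMUSG00000033981, chromosome 3, minus strand) had 1116 and 869 counts in Ezh2 f/f against 2280 and 2823 counts in Ezh2 cKO. Its level went from 65.3 and 55.3 CPM to 129 and 163 CPM. The groups did not overlap, although the Ezh2 cKO libraries differed from each other more than for most members, and the log2 fold change was 1.28 (SE 0.12, 95% confidence interval 1.01 to 1.54, edgeR adjusted p = 4.99e-07), or 2.42-fold.

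Gria1 (ENSMUSG00000020524, chromosome 11, plus strand), the subunit whose delivery to synapses accompanies long-term potentiation, was the most highly expressed of the AMPA genes. It had 236 and 219 CPM in Ezh2 f/f against 299 and 336 CPM in Ezh2 cKO, from 4030, 3434, 5266 and 5816 counts. The increase was smaller than for Gria2 and Gria3, with a log2 fold change of 0.48 (SE 0.09, 95% confidence interval 0.29 to 0.68, edgeR adjusted p = 3.23e-04), or 1.4-fold. Gria4 (ENSMUSG00000025892, chromosome 9, minus strand), which encodes the fast-gating subunit prominent in early development and in some interneurons, had 46.8 and 48.7 CPM in Ezh2 f/f against 45.5 and 49.9 CPM in Ezh2 cKO. Its libraries overlapped, and its log2 fold change of -0.00 had a 95% confidence interval of -0.21 to 0.21 (edgeR adjusted p = 0.995), so a change of more than 1.15-fold either way lay outside the interval. With each library left out in turn, the log2 fold changes of Gria1, Gria2 and Gria3 kept their direction. They ran from 0.40 to 0.56, 1.10 to 1.43 and 1.54 to 1.79.

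The kainate receptor genes did not move together. Grik1 (ENSMUSG00000022935, chromosome 16, minus strand), which encodes the channel-forming subunit GluK1 known from interneurons and sensory neurons, had 219 and 226 counts in Ezh2 f/f against 401 and 391 counts in Ezh2 cKO. This was 12.8 and 14.4 CPM against 22.7 and 22.6 CPM. It rose with a log2 fold change of 0.74 (SE 0.14, 95% confidence interval 0.44 to 1.03, edgeR adjusted p = 2.82e-04), or 1.67-fold. Grik5 (ENSMUSG00000003378, chromosome 7, minus strand) encodes GluK5, a high-affinity subunit that reaches the membrane only with GluK1, GluK2 or GluK3. It was the most counted of all 9 members, with 8938 and 8209 counts in Ezh2 f/f against 6957 and 6480 counts in Ezh2 cKO, or 523 and 522 CPM against 395 and 374 CPM. Grik5 fell by 0.44 on the log2 scale (SE 0.08, 95% confidence interval -0.62 to -0.27, edgeR adjusted p = 2.02e-04), to 0.735 times its Ezh2 f/f level.

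Of the remaining kainate genes, Grik3 (ENSMUSG00000001985, chromosome 4, plus strand), whose product GluK3 needs high glutamate concentrations to open, differed little between the groups. It had 138 and 135 CPM in Ezh2 f/f against 143 and 131 CPM in Ezh2 cKO, and the 95% confidence interval of its log2 fold change ran from -0.19 to 0.20 (edgeR adjusted p = 0.989). Grik2 (ENSMUSG00000056073, chromosome 10, minus strand), which encodes the widespread channel-forming subunit GluK2, had 38.6 and 36.7 CPM in Ezh2 f/f against 30.9 and 42.4 CPM in Ezh2 cKO. Its Ezh2 cKO libraries lay on both sides of the Ezh2 f/f libraries, and the interval of its log2 fold change ran from -0.33 to 0.25 (edgeR adjusted p = 0.804). Grik4 (ENSMUSG00000032017, chromosome 9, minus strand), which encodes GluK4, the other high-affinity partner subunit, had 26.2 and 34.2 CPM in Ezh2 f/f against 24.8 and 25.7 CPM in Ezh2 cKO. Both Ezh2 cKO libraries lay below both Ezh2 f/f libraries, but replicate 1 of Ezh2 f/f was close to them, and the log2 fold change of -0.26 (SE 0.13) did not pass the test (edgeR adjusted p = 0.104). Without that library, which leaves 1 library in Ezh2 f/f, the log2 fold change of Grik4 was -0.44. Without replicate 2 of Ezh2 f/f it was -0.07.

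Levels were compared between genes as FPKM. In Ezh2 f/f the order was Grik5 (98.2 ± 0.773 FPKM, SD, n = 2), Gria1 (36.5 ± 2.22), Grik3 (14.8 ± 0.337), Gria4 (7.35 ± 0.152), Grik4 (4.92 ± 0.889), Gria2 (3.77 ± 0.468), Grik2 (2.76 ± 0.121), Grik1 (1.96 ± 0.146) and Gria3 (1.84 ± 0.159). Only the last neighbours, Grik1 and Gria3, had overlapping libraries. In Ezh2 cKO the order was Grik5 (76.4 ± 1.77 FPKM, SD, n = 2), Gria1 (54 ± 5.25), Grik3 (15.7 ± 0.766), Gria2 (9.67 ± 1.71), Gria4 (7.79 ± 0.62), Gria3 (6.2 ± 0.847), Grik4 (4.36 ± 0.167), Grik1 (3.47 ± 0.0321) and Grik2 (2.85 ± 0.677), and no neighbours overlapped. By FPKM, Grik5, Gria1 and Grik3 thus held the top places in both groups. On that scale Gria2 moved above Gria4 and Grik4, and Gria3 moved from last place to the sixth. The lengths behind these values ranged from 5168 bases for Grik5 to 15548 bases for Gria2 and 13246 bases for Grik2. The low FPKM of Gria2 and Grik2 thus depends on those long gene models, and so does the change of order. By mean CPM, not scaled to length, Gria2 (60.3) already lay above Gria4 (47.8) and Grik4 (30.2) in Ezh2 f/f. Gria3 (18.7) lay above Grik1 (13.6) there.

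The composition of the AMPA pool differed between the groups. Gria1 made up 74.1% and 73.5% of the summed AMPA FPKM in Ezh2 f/f against 70.1% and 69% in Ezh2 cKO. Gria2 made up 7.98% and 7.23% in Ezh2 f/f against 11.8% and 13% in Ezh2 cKO, and Gria3 3.8% and 3.63% against 7.81% and 8.13%. Gria4, whose own level did not pass the test, went from 14.1% and 15.7% to 10.3% and 9.84%. All 4 shares separated the groups, but shares are parts of a whole and cannot move independently of each other. A background for shares was not computed, here or for the kainate genes. For CPM, a different measure by which Gria4 overlapped, the groups lay apart in 42.8% of all tested genes with Ezh2 cKO above. They lay apart in 41.5% with it below. With 2 libraries against 2 an exact permutation p cannot fall under 0.333 (two-sided), so these shares are a description. The ratio of Gria1 to Gria2 FPKM was 9.29 and 10.2 in Ezh2 f/f against 5.94 and 5.3 in Ezh2 cKO. On counts with no scaling to length this ratio was 3.61 and 3.95 against 2.31 and 2.06. The Gria2 share of the AMPA counts was 17.8% and 16.3% in Ezh2 f/f against 24.5% and 26.6% in Ezh2 cKO.

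Within the kainate pool, Grik5 made up 80.4% and 79.7% of the summed FPKM in Ezh2 f/f against 74.7% and 74% in Ezh2 cKO. Grik3 went from 12.2% and 11.9% to 15.6% and 14.9%, although its own level was not called, and Grik1 from 1.52% and 1.69% to 3.31% and 3.43%. The shares of Grik2 (2.32% and 2.18% against 2.28% and 3.27%) and Grik4 (3.49% and 4.53% against 4.08% and 4.4%) overlapped between the groups. The ratio of the partner-dependent subunits Grik4 and Grik5 to the channel-forming subunits Grik1, Grik2 and Grik3 was 5.22 and 5.35 in Ezh2 f/f against 3.72 and 3.63 in Ezh2 cKO. Summed over each family, AMPA FPKM went from 49.4 ± 2.7 to 77.7 ± 8.43 (SD, n = 2 in each group), 1.57 times the Ezh2 f/f level, and kainate FPKM from 123 ± 0.197 to 103 ± 1.66, 0.838 times. The ratio of the AMPA sum to the kainate sum was 0.418 and 0.388 in Ezh2 f/f against 0.69 and 0.823 in Ezh2 cKO, so kainate transcripts, mainly Grik5, outweighed AMPA transcripts in every library. On counts with no scaling to length this last order held in 3 of the 4 libraries, since the ratio in replicate 2 of Ezh2 cKO was 1.03.

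**Figure D2:**
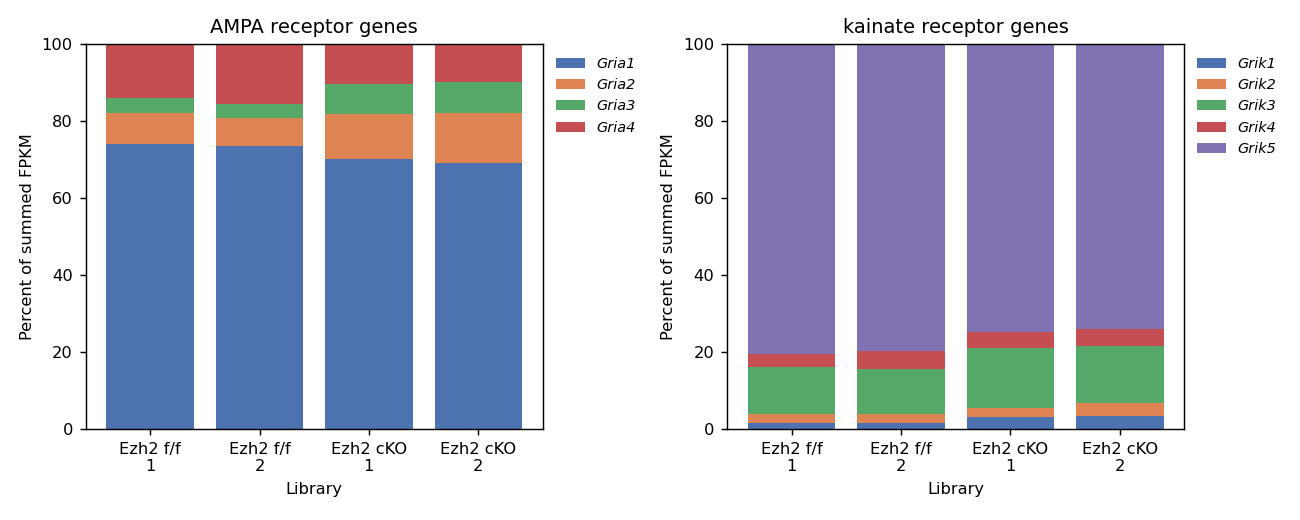
Percent of the summed FPKM of the 4 AMPA receptor genes (left) and the 5 kainate receptor genes (right), stacked to 100% (vertical axis) in each library (horizontal axis). Gria2 and Gria3 take a larger share in both Ezh2 cKO libraries, and Grik5 takes the largest kainate share in all 4 libraries, between 74% and 80.4%.

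Markers of several cell types moved in the same comparison, in which 34.7% of all tested genes were called higher and 33.6% lower. Of 7 excitatory neuron markers 2 were higher and 3 lower, and their summed level went from 1217 and 1093 CPM to 3930 and 3666 CPM. Slc17a7, the vesicular glutamate transporter of cortical projection neurons, went from a mean of 22.5 to 258 FPKM and Camk2a, a synaptic kinase of the same cells, from 32.4 to 282 FPKM. These were the only markers of that list called higher. The lower ones, named after their values were seen, were the neuronal transcription factor genes Neurod2 (96.2 to 30.4 FPKM), Neurod6 (119 to 57.6 FPKM) and Tbr1 (19.7 to 15.4 FPKM), and the median log2 fold change of the list was 0.08. All 8 immature neuron and progenitor markers were lower, at 1383 and 1345 CPM against 342 and 385 CPM. The doublecortin gene Dcx, for example, went from a mean of 47.4 to 17.9 FPKM and Igfbpl1 from 50.5 to 5.4 FPKM. The 10 pan-neuron markers split into 8 higher and 2 lower. Their sum was 6409 and 6724 CPM against 7174 and 7203 CPM, above the Ezh2 f/f libraries, while the FPKM sum given above lay below them, with their most abundant members moving apart: Tubb3 went from 1878 to 1215 FPKM and Stmn2 from 225 to 329 FPKM. Of 8 inhibitory interneuron markers 2 were higher and 3 lower (748 and 674 CPM against 645 and 639 CPM), with Sst at 224 and 340 FPKM and Npy at 129 and 119 FPKM. Its lower members, also named after their values were seen, were Dlx2 (log2 fold change -2.41), Lhx6 (-1.73) and Dlx1 (-0.91).

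Glial markers were mostly higher, beside 34.7% of all tested genes called higher and 33.6% called lower. Of the 10 astrocyte markers 8 were higher (479 and 494 CPM against 2806 and 2558 CPM), Gfap from a mean of 9.18 to 132 FPKM and Aldoc from 36.3 to 133 FPKM, and the other two were not called. Oligodendrocyte precursor markers, which label cells that carry AMPA receptors, were higher in 6 of 6 (183 and 184 CPM against 603 and 533 CPM), with Olig1 at 18.9 and 78.4 FPKM and Olig2 at 17.4 and 28.2 FPKM. The 6 oligodendrocyte markers were all higher (67.9 and 83.5 CPM against 837 and 716 CPM), among them Mbp (4.63 to 53.2 FPKM) and Cnp (6.36 to 51.2 FPKM). The only marker with a count of 0 in any library was Mobp, at 0 and 6 counts in Ezh2 f/f against 689 and 602 counts in Ezh2 cKO. A count of 0 there allows up to 3 counts, or 0.171 CPM. Microglial markers were higher in 6 of 6 (53 and 56.2 CPM against 204 and 175 CPM), with C1qa at 16.3 and 35.6 FPKM and Csf1r at 4.35 and 12.7 FPKM. Of 6 endothelial markers 1 was higher and 1 lower (231 and 224 CPM against 244 and 208 CPM), with Cldn5 at 81.4 and 81.5 FPKM and Cdh5 at 6.73 and 5.81 FPKM. The lower call, that of Cdh5, was lost with DESeq2, no filter on low counts, a filter of 50 counts on average, limma on FPKM, and with replicate 1 of Ezh2 f/f or either Ezh2 cKO library left out, and the higher one without replicate 1 of Ezh2 cKO. The part of these cell types in the levels of Gria1, Gria2, Gria3, Grik1 and Grik5 was not tested.

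**Figure D3:**
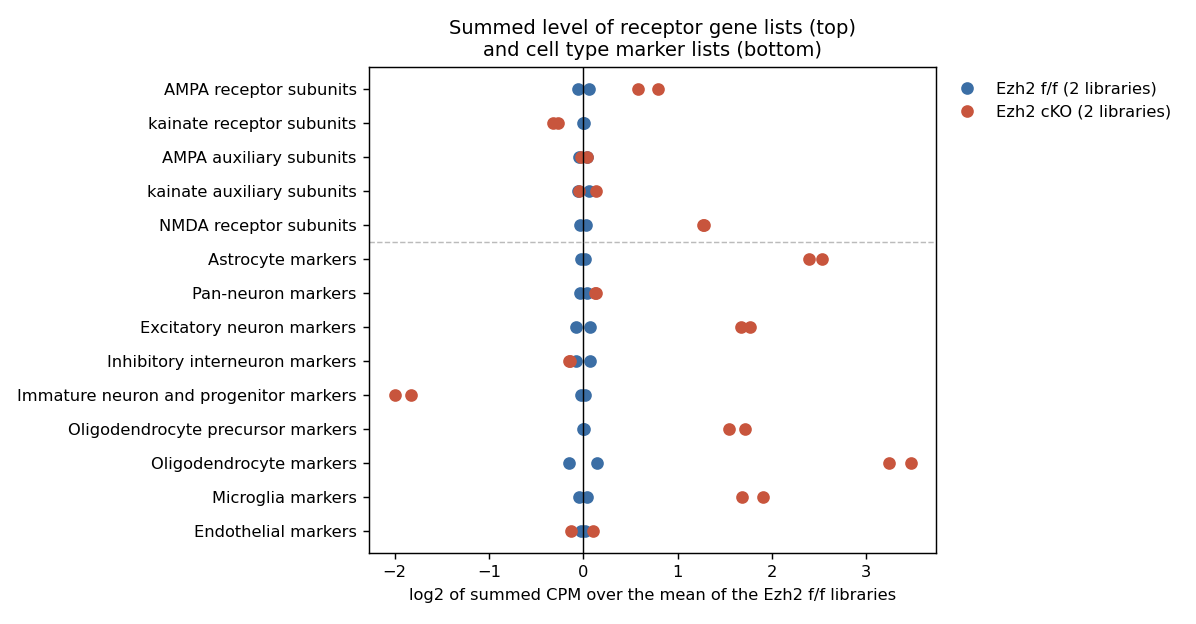
Summed CPM of each gene list in each library, as log2 over the mean of the Ezh2 f/f libraries (horizontal axis), with receptor gene lists above the dashed line and cell type marker lists below it. The summed AMPA genes lie above 0 and the summed kainate genes below 0 in both Ezh2 cKO libraries, on a scale on which astrocyte, excitatory neuron, oligodendrocyte lineage and microglial markers lie further above 0 and immature neuron and progenitor markers further below. The excitatory neuron sum is carried by Slc17a7 and Camk2a, in a list with 2 genes higher, 3 lower and a median log2 fold change of 0.08.

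Among the auxiliary subunits of AMPA receptors, 8 of 15 (53.3%) were higher and 4 (26.7%) lower in Ezh2 cKO, beside 34.7% and 33.6% of all tested genes, with a median log2 fold change of 0.49. The largest group are the TARPs, small tetraspan proteins that bring the receptors to the synapse and slow their closing. Cacng3, which encodes the cortical TARP γ-3, rose from 17.3 and 25.3 CPM to 110 and 105 CPM (log2 fold change 2.34, SE 0.14, edgeR adjusted p = 5.50e-09). Cacng8, Cacng5 and Cacng2, the last encoding stargazin, rose with log2 fold changes of 1.09, 1.09 and 0.65. Cacng4, encoding the TARP γ-4 that is high in early development and in glia, moved the other way, from 387 and 462 CPM to 194 and 185 CPM (log2 fold change -1.16, SE 0.10, edgeR adjusted p = 1.37e-07). Cacng7 had 309 and 330 CPM against 301 and 268 CPM and was not called (edgeR adjusted p = 0.116). As a share of the summed TARP FPKM, Cacng4 went from 40.8% and 43% to 20.4% and 20.5%, and Cacng3 from 2.34% and 3.03% to 14.9% and 15%. Cacng7 took between 43.6% and 47.6% in every library and overlapped between the groups.

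Other AMPA receptor partners rose as well. Prrt1, which encodes SynDIG4, a protein that holds a reserve of receptors outside the synapse, went from 48.2 and 42 CPM to 219 and 209 CPM (log2 fold change 2.24, SE 0.10, edgeR adjusted p = 4.93e-10). Syndig1, its relative, rose with a log2 fold change of 1.77 and Shisa9, a modulator of receptor desensitisation, with 0.81. Gsg1l, whose product dampens AMPA receptor currents, was higher by 0.49 (edgeR adjusted p = 0.00385). Cnih2, which encodes a cornichon that helps receptors leave the endoplasmic reticulum, was the most highly expressed partner at a mean of 509 FPKM in Ezh2 f/f and 463 FPKM in Ezh2 cKO. It fell by 0.22 on the log2 scale (edgeR adjusted p = 0.0184), as did Shisa7 (edgeR adjusted p = 0.0301), and Shisa8 fell by 0.60 (edgeR adjusted p = 0.0316). Cnih3 (0.22) and Shisa6 (-0.02) were not called. Of these smaller differences, the call of Gsg1l was lost without replicate 1 of Ezh2 cKO (adjusted p = 0.104). Cnih2 lost its call without replicate 2 of either group, and Shisa8 without replicate 1 of Ezh2 cKO. Shisa7 lost its call without replicate 1 of Ezh2 f/f or either Ezh2 cKO library. Without replicate 1 of Ezh2 f/f the log2 fold change of Cnih3 was 0.34. Each of these fits has 1 library in a group. With all libraries kept, Cnih3 was called higher with a filter of 50 counts on average (adjusted p = 0.0466) and with limma on FPKM (adjusted p = 0.0197). Shisa8 lost its call with DESeq2 (adjusted p = 0.117).

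**Figure D4:**
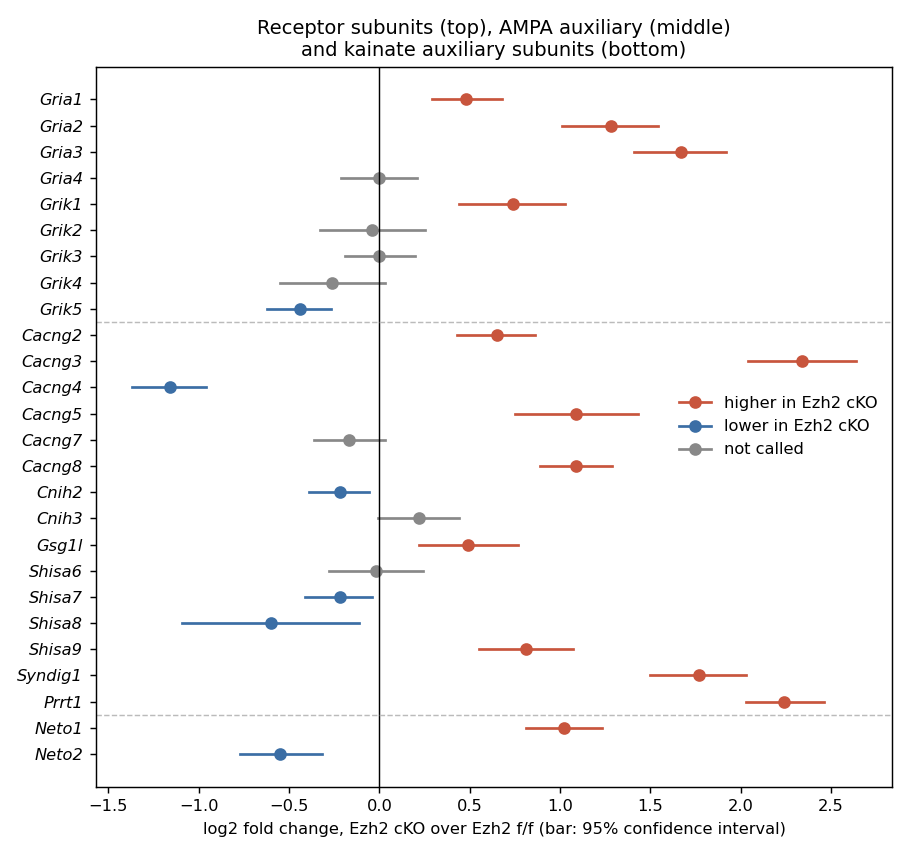
Log2 fold change, Ezh2 cKO over Ezh2 f/f (horizontal axis), of the receptor subunit genes and the auxiliary subunit genes (vertical axis), as points with their 95% confidence intervals as bars. Gria3, Gria2, Cacng3 and Prrt1 stand furthest to the right of their groups, while Cacng4, Neto2 and Grik5 stand to the left of 0.

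The auxiliary subunits of kainate receptors moved in opposite directions. Neto1 rose from 36.4 and 35 CPM to 68.5 and 76.4 CPM (log2 fold change 1.02, SE 0.10, edgeR adjusted p = 4.76e-07). Neto2 fell from 105 and 96 CPM to 63.4 and 74.1 CPM (log2 fold change -0.55, SE 0.10, edgeR adjusted p = 3.41e-04). Both encode CUB-domain proteins that slow the decay of kainate receptor currents. The ratio of Neto1 to Neto2 FPKM was 0.254 and 0.267 in Ezh2 f/f against 0.793 and 0.756 in Ezh2 cKO, so Neto2 was the more abundant of the pair in all 4 libraries by FPKM. On counts with no scaling to length the order turned in Ezh2 cKO, where the ratio was 1.08 and 1.03.

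Genes for receptor traffic and scaffolding were mostly higher: 16 of 20 (80%) rose and 2 (10%) fell, beside 34.7% and 33.6% of all tested genes, with a median log2 fold change of 0.94. With a library left out, 13 to 16 were called higher, as Grip1, Pick1 and Sacm1l, named after their values were seen, lost their calls under some of these fits, and Sacm1l also with DESeq2 (adjusted p = 0.0949). The largest increases were those of Nptx1, which encodes a secreted pentraxin that clusters AMPA receptors, from 17.7 and 15.5 CPM to 78.8 and 80.1 CPM (log2 fold change 2.26), and of Abhd6, which encodes a hydrolase that associates with AMPA receptors (log2 fold change 1.93). Grip2, the gene of a PDZ scaffold that binds the tails of GluA2 and GluA3, fell by 0.67 on the log2 scale (edgeR adjusted p = 6.26e-05), and Porcn, an acyltransferase of the endoplasmic reticulum, fell by 0.40 (edgeR adjusted p = 0.00214). Nptx2 (0.10) and Tamalin (-0.11) were not called. The marker lists given above moved in the same libraries as these partner genes, and their part was not tested here either.

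The enzymes that edit receptor transcripts changed in both directions. Adarb1, which encodes the ADAR2 that edits the Q/R codon shown above, rose from 99.8 and 84.1 CPM to 123 and 125 CPM (log2 fold change 0.43, SE 0.10, edgeR adjusted p = 0.00165). Adar fell from 139 and 136 CPM to 71.1 and 71.2 CPM (log2 fold change -0.95, SE 0.09, edgeR adjusted p = 5.00e-07), and Adarb2, whose product has no known editing activity, rose by 0.64 (edgeR adjusted p = 0.00307). The increase of Gria2 (1.28) was larger than that of Adarb1, but the difference between these fold changes was not tested.

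The related ionotropic receptor genes gave the following values. Grid1, which encodes a delta receptor subunit, had 59 and 59.9 CPM in Ezh2 f/f against 67.4 and 68.2 CPM in Ezh2 cKO and was not called (edgeR adjusted p = 0.0746). Of the 7 NMDA receptor genes 6 (85.7%) were higher and 1 (14.3%) lower, beside 34.7% and 33.6% of all tested genes. The increases were led by Grin2a (2.91) and Grin2c (1.99), with the smallest in Grin2d (0.44, edgeR adjusted p = 0.0392). Grin3b, at 15 and 15 counts against 3 and 7 counts, was lower (edgeR adjusted p = 0.0166). The libraries of Grin2d overlapped between the groups (43.5 and 74.4 CPM against 85.8 and 73.9 CPM). Its call was lost with DESeq2 (adjusted p = 0.36), with no filter on low counts (adjusted p = 0.079), with either Ezh2 cKO library left out and without replicate 1 of Ezh2 f/f, where the log2 fold change was 0.10, and the value was 0.86 without replicate 2 of Ezh2 f/f. The call of Grin3b was lost with DESeq2 (adjusted p = 0.129) and with either Ezh2 f/f library or replicate 1 of Ezh2 cKO left out. The ratio of summed AMPA to summed NMDA receptor FPKM was 2.06 and 1.62 in Ezh2 f/f against 1.07 and 1.28 in Ezh2 cKO. On counts with no scaling to length it was 1.11 and 0.983 in Ezh2 f/f against 0.648 and 0.748 in Ezh2 cKO. Which sum was the larger thus depended on the scaling to length.

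RefSeq promoter sequence (GRCm38.p6) was held for 6 of the 9 members, namely Gria2, Gria4, Grik2, Grik3, Grik4 and Grik5. CG dinucleotides were counted because Polycomb repressive complex 2 is known to gather at CG-rich promoters, although no chromatin measurement was used here. The window of 300 bases, 250 before the start and 50 after it, held 50 CG in Grik3, 42 in Grik4, 26 in Gria2, 26 in Grik2, 17 in Gria4 and 10 in Grik5, beside a median of 7 over 32851 promoters. CG is its own reverse complement, so one strand gives the count for both, and 94.6% of promoters held at least 1. Grik3 and Grik4, neither of which was called, had more CG than 99.1% and 97.0% of promoters. Among the members called higher, only Gria2 had a promoter sequence here, and Grik2, with the same 26 CG, was not called. A link between CG count and fold change was not tested. The 250 bases before the start are shown for Gria2, which rose, and Grik5, which fell, with each CG in capitals. They lie on the minus strand at chr3:80802836-80803085 and chr7:25072370-25072619.
Gria2: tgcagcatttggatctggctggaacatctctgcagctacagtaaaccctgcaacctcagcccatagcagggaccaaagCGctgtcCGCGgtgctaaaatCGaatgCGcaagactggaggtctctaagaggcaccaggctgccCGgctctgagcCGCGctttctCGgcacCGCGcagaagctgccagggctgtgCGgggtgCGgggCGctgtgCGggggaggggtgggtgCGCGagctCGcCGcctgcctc
Grik5: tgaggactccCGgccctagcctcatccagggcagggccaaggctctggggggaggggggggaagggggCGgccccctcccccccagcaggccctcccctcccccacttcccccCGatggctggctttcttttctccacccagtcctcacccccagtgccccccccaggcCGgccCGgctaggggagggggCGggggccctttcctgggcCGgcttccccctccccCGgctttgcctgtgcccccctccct
The Gria2 stretch held 19 CG and the Grik5 stretch 8.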

How the data were processed

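RNA-seq of anti-GLAST-selected cortical cells of P5 mice was compared between 2 libraries of Ezh2 f/f mice and 2 of Ezh2 cKO mice. The authors deposited, per gene, counts with no normalization, and FPKM values. Each FPKM equals the count divided by the library total and by 1 length per gene, a whole number in 29224 of 29224 genes (tolerance 0.01), and for all 9 members the union of exons in GENCODE M21. The submitters' processing notes name Bowtie2 2.2.3, TopHat2 2.0.12, HTSeq 0.6.0 and mm9. The use of strand is not given in the sources used here. Gene coordinates in the tables matched GRCm38 in 581 of 28799 genes with a shared identifier, their build was not settled and none is printed. Site and promoter coordinates come from GENCODE M21 and RefSeq on GRCm38. Columns of the authors' own comparison (ratio, log2 ratio, p-values) were not used. No sample column was left out (0).

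Counts were tested with edgeR 4.0.16 in R 4.3.3 (filterByExpr, TMM factors 0.967 to 1.040, quasi-likelihood test, group as the only term), with Benjamini-Hochberg adjustment over all 16793 genes tested and calls at an adjusted p under 0.05. Shares and ratios were computed from FPKM and compared by exact permutation over the 4 libraries. Libraries of a group differed beyond sampling noise (chi-square over degrees of freedom 8.92 for the Ezh2 f/f pair and 5.68 for the Ezh2 cKO pair), so none was counted as a duplicate. On simulated counts with 200 genes changed 2-fold, edgeR recovered 170 (85%) with 7 false calls over 16525 genes. DESeq2 1.42.0 recovered 146 (73%) with 3 false calls over the same genes, and limma 3.58.1 recovered 151 (75.5%) with 12 false calls over 13215 genes. That simulation changed only those 200 genes and gave every gene the same spread beyond sampling noise. In the data 34.7% of tested genes were called higher and 33.6% lower, so these figures do not give the error rates of this comparison. The floor of 3 counts covers counting error only.

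The alternatives were the DESeq2 Wald test, DESeq2 size factors in edgeR, no filter (at least 1 count), a filter of 50 counts on average, limma on log2(FPKM + 1) for genes with an FPKM of at least 1 in 2 libraries, a block for the replicate number, fits that dropped each library in turn, and shares of counts not scaled to length. The members and gene lists were chosen with earlier results of these data known, and the TARP shares and the Neto1 to Neto2 and AMPA to NMDA ratios were added after values had been seen. Named were all members, Ezh2, all auxiliary and editing genes, Grid1, the 2 highest and 2 lowest called genes and the uncalled genes of the trafficking and NMDA lists, and of each marker list the 2 genes with the highest mean FPKM and those with a count of 0. A further listed gene is not reported here. Exons of Gria2, Gria3, Gria4 and Grik4 overlap small RNA genes that are not used here. Python 3.11.15 with pandas 2.3.3, numpy 2.4.6 and scipy 1.17.1 made the tables.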

Additional observations from a re-analysis of the deposited data

How the results depend on the processing

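The calls of Gria1, Gria2, Gria3, Grik1 and Grik5 stayed past the threshold under every alternative that kept all 4 libraries. There the count of members called higher stayed at 4. A fit with a library left out has 1 library in a group, so its p-value rests on the spread of the other group alone. Calls gained or lost in such fits are description only. In them log2 fold changes ran from 0.40 to 0.56 for Gria1, 1.10 to 1.43 for Gria2 and 1.54 to 1.79 for Gria3. Those of Grik1 ran from 0.65 to 0.81 and those of Grik5 from -0.48 to -0.40. Of the uncalled members, whose values lie near 0, Gria4 became 0.03 with the filter of 50 counts and 0.07 with limma on FPKM (-0.06 to 0.07 with a library left out), Grik2 became 0.02 with limma (-0.28 to 0.17), and Grik3 became -0.01 with DESeq2 and with its size factors (-0.06 to 0.07). Grik4 passed the test under no alternative that kept all 4 libraries. With a library left out it ranged from -0.44, without replicate 1 of Ezh2 f/f, to -0.07, without replicate 2 of Ezh2 f/f. Shisa6 became 0.02 with the filter of 50 counts and 0.05 with limma (-0.20 to 0.15), and Tamalin ranged from -0.26 to 0.05. With limma, 2 AMPA auxiliary genes were lower in place of 4, and 2 to 3 with a library left out. Grid1 was called higher with the filter of 50 counts (adjusted p = 0.0305) and with limma (adjusted p = 0.0166), which makes 1 gene where the edgeR test called 0. The NMDA genes had 0 called lower with DESeq2, the filter of 50 counts (which leaves out Grin3b) and limma, and 0 to 1 with a library left out.

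Counts not scaled to length moved the difference in share, Ezh2 cKO minus Ezh2 f/f in percentage points, to -8.52 for Gria1, 8.53 for Gria2 and 5.13 for Gria3 (with FPKM -4.22, 4.81 and 4.26), and to 1.91 for Grik1, 4.14 for Grik3 and -7.12 for Grik5 (with FPKM 1.77, 3.19 and -5.72). The log2 ratio of Grik4 and Grik5 to Grik1, Grik2 and Grik3 then differed by -0.50 in place of -0.52. The share of Cacng7 differed by 0.567 in place of -1.31. Apart from gene length, the causes were not tested.

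Libraries share replicate numbers across groups, but nothing says that a number marks a shared litter or day, and the deviations of same-numbered libraries correlated with r = 0.111 over 16793 genes in only 2 pairs. With the replicate block, 5795 genes were higher and 5599 lower, beside 5831 and 5650 without it, and the members' counts remained 4 higher and 1 lower. Of the marker lists, the block took the lower endothelial markers from 1 to 0 and the lower immature neuron and progenitor markers from 8 to 7. With 2 libraries a group, and those of Ezh2 f/f at 26.2 and 34.2 CPM for Grik4, the difference of Grik4 could not be settled.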
